A study of Mus musculus with 6 samples.

Results

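The sarcomeric myosin heavy chain loci were the 500 kb bins of mm10 that held the transcription start sites (TSS) of 9 mouse genes, *Myh1*, *Myh2*, *Myh3*, *Myh4*, *Myh8*, *Myh13*, *Myh6*, *Myh7* and *Myh7b*, placed with the GENCODE vM21 annotation. The 9 genes, of 21951 protein-coding genes placed in a bin, fell in 3 bins of the 5455 in the matrices. Hi-C, which ligates and sequences DNA fragments that lie close together in the nucleus, had been performed with HindIII on C2C12 cells, an established mouse line of skeletal myoblasts. Myoblasts were harvested sub-confluent at day 0, myotubes at day 3 of differentiation in low-serum medium, and AraC-treated myotubes at day 7, after 10 µg/ml of AraC (cytosine arabinoside, which kills dividing cells) had been present from day 3. The myotube cultures still held undifferentiated myoblasts, which AraC was used to remove, so differentiation time, AraC and the share of myoblasts cannot be told apart between the later conditions. There were 2 biological replicates a condition, 6 libraries in all, but the authors deposited 1 pooled matrix a condition, so that every value below is a single value per condition with no SD and no test between conditions. All libraries came from a single cell line.

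Myosin heavy chain is the motor protein of the thick filament, and the gene that a muscle fibre uses sets how fast it contracts. Skeletal muscle passes from the embryonic (*Myh3*) and perinatal (*Myh8*) chains to the adult fast chains IIa (*Myh2*), IIx (*Myh1*) and IIb (*Myh4*), whose genes lie beside each other in the cluster. *Myh13* encodes the chain of extraocular muscle, *Myh6* the alpha cardiac chain, *Myh7* the beta cardiac chain that also serves slow skeletal fibres, and *Myh7b* an ancient slow-tonic chain. In Hi-C maps, chromatin separates into an A compartment, generally rich in active genes, and a B compartment, generally inactive and often at the nuclear periphery.

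All 6 skeletal genes shared the bin chr 11 67000001–67500000. They lay on the plus strand between 67078300 and 67371586, a span of 293.3 kb, in the order *Myh3*, *Myh2*, *Myh1*, *Myh4*, *Myh8* and *Myh13*. *Myh6* and *Myh7* shared chr 14 54500001–55000000, on the minus strand between 54941921 and 54994626, and *Myh7b* lay alone among the members in chr 2 155500001–156000000, on the plus strand between 155611212 and 155634307. Every member lay wholly within its bin. A value of the chr 11 bin therefore belongs to 6 members at once, together with *Tmem220*, *Adprm*, *Sco1* (a copper chaperone of cytochrome c oxidase) and *Gas7*, and cannot be assigned to any of them. The chr 14 bin held 26 protein-coding TSSs and the chr 2 bin 16, against 10 on chr 11 and a median of 2 over the autosomal bins with data. The members were thus 6 of 10 genes in the chr 11 bin, but 2 of 26 in the chr 14 bin and 1 of 16 in the chr 2 bin.

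The cut sites of the assay were less dense in these bins than in most. HindIII sites numbered 144 in the chr 11 bin, 134 in the chr 14 bin and 102 in the chr 2 bin, while the median bin had 162. Only 0.698% of the autosomal bins had fewer sites than the *Myh7b* bin. The HindIII fragment that held a TSS was 2052 bases long at *Myh3*, 3304 at *Myh8*, 15657 at *Myh2*, 404 at *Myh1*, 10374 at *Myh4* and 2227 at *Myh13*. It was 19503 bases at *Myh6*, 2518 at *Myh7* and 2496 at *Myh7b*. GC content was 44.6%, 47.6% and 46.8% in the chr 11, chr 14 and chr 2 bins, above the median of 41.7%.

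The cardiac and slow chain genes carry microRNAs in their introns, which mark what these bins hold besides the motor proteins. RefSeq (GRCm38.p6) places 4 miRNA genes inside members, each in an intron and on the strand of its host: *Mir208a* in *Myh6*, *Mir208b* in *Myh7*, *Mir499* in *Myh7b* and *Mir6923* in *Myh3*. The arms of the 3 related miRNAs that share most of a seed are shown, with the seed (bases 2 to 8) in capitals.
miR-208a-3p (chr 14 54949072–54949093, minus): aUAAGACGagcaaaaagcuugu
miR-208b-3p (chr 14 54975710–54975731, minus): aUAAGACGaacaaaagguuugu
miR-499-5p (chr 2 155622893–155622913, plus): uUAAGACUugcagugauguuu
Counted from the 5′ end, miR-208b-3p differed from miR-208a-3p by G10A, A16G and C18U, so that their seeds were identical, and miR-499-5p differed from miR-208a-3p within the first 8 bases by A1U and G8U. The seed UAAGACG was held by 2 of 1679 mature mouse miRNAs in the table, which were those of the chr 14 bin, and UAAGACU by miR-499-5p alone. The matrices do not resolve these miRNAs from their hosts.

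The bases just before the TSS are shown for 1 member of each bin, to show the regulatory sequence that the bins hold. They were read from the RefSeq promoter table (GRCm38.p6), up to the GENCODE TSS. Motif matches on either strand are in capitals. The motifs were the E box CANNTG, the TATA motif TATAAA, the TEAD motif CATTCC, and the MEF2 and CArG motifs by their usual consensus. CANNTG is the general form of the E box, and sites of MyoD and myogenin are only part of it.
*Myh3* (chr 11 67078050–67078299, plus): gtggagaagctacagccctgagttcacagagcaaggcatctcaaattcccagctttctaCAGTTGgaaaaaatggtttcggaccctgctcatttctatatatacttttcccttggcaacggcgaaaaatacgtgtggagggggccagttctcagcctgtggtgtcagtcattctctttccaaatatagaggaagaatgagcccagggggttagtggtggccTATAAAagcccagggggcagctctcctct
*Myh7* (chr 14 54994627–54994876, minus): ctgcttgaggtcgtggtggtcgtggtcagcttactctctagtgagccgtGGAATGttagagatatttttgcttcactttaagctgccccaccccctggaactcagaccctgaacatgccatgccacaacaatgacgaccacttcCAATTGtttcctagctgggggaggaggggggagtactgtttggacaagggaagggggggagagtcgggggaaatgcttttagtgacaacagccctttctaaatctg
*Myh7b* (chr 2 155610993–155611211, plus): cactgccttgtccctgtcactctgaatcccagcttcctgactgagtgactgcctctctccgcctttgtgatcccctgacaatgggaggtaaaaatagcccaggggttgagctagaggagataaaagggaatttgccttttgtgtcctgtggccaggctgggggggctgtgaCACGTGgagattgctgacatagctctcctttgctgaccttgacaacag
The *Myh3* stretch held TATAAA at −29 to −24 and an E box at −191 to −186, the *Myh7* stretch an E box at −106 to −101 and CATTCC on the other strand at −201 to −196, and the *Myh7b* stretch an E box at −48 to −43. Over 32851 RefSeq promoters of 250 bases, 66.2% held an E box, 12.4% TATAAA, 12.6% CATTCC, 2.92% the MEF2 motif and 1.47% the CArG motif. Among the 6 skeletal genes, in the RefSeq windows, TATAAA was found upstream of *Myh1*, *Myh3*, *Myh4* and *Myh8*, and the MEF2 motif upstream of *Myh1*, *Myh4* and *Myh8*. These are matches of letters within 250 bases, a scale far below that of the bins, and no value of the matrices belongs to them.

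Each deposited value is the correlation coefficient between the normalized interaction profiles of 2 bins, and high values mark bins with alike partners and is no number of contacts. Between autosomal bins on separate chromosomes, the coefficients had an SD of 0.0446 in myoblasts, 0.0889 in myotubes and 0.0731 in the AraC-treated myotubes, and the number of di-tags behind a coefficient cannot be read from the files. PC1, the score of a bin on the first principal component of its chromosome, was positive in A and negative in B. It explained 69.2%, 90.3% and 86.7% of the variance of chr 11 in myoblasts, myotubes and AraC-treated myotubes, 28.3%, 56.1% and 44.5% of that of chr 14, and 55.6%, 79.8% and 74.1% of that of chr 2. Since the SD of PC1 over autosomal bins also differed (0.859, 1.61 and 1.36), conditions were compared on scaled PC1, which is PC1 divided by that SD, and on the rank of a bin within its own chromosome, which does not depend on any scale.

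The skeletal gene cluster lay in B in all conditions, and the cardiac and slow genes lay in A in all conditions. For *Myh1*, *Myh2*, *Myh3*, *Myh4*, *Myh8* and *Myh13*, the scaled PC1 of the shared chr 11 bin was −2.0 in myoblasts, −1.30 in myotubes and −0.91 in the AraC-treated myotubes. In myoblasts only 2.95% of the 237 bins of chr 11 lay lower, so the cluster was among the bins deepest in B, whereas 37.1% lay lower in myotubes and 45.1% in the AraC-treated myotubes. Over all autosomes, 0.254%, 2.75% and 10.1% of the bins lay lower, so that by this rank the cluster was still among the lowest bins in myotubes. This rank also depends on the spread of PC1 on each chromosome. In myotubes the median scaled PC1 of B bins was −1.44 on chr 11, below that of the cluster, and −0.41 on chr 14. For *Myh6* and *Myh7*, scaled PC1 was 0.83, 1.03 and 1.01, and 83.0%, 88.3% and 88.7% of the chr 14 bins lay lower. For *Myh7b*, scaled PC1 was 2.92, 2.69 and 2.45, and 95.5%, 95.5% and 93.2% of the chr 2 bins lay lower. The order of the loci, *Myh7b* above *Myh6* and *Myh7* above the skeletal cluster, was equal in every condition. PC1 computed from odd-numbered or from even-numbered partner bins of the chromosome, a check of the choice of partners and not of replicates, differed by at most 0.0924 in size for these bins. That is less than any of the gaps between the loci.

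A share of 38.3%, 36.5% and 35.5% of the autosomal bins lay in A in myoblasts, myotubes and AraC-treated myotubes, and 60.1%, 58.3% and 57.3% of the protein-coding genes. Of the 3 locus bins, 2 lay in A in each condition. By gene, 3 of the 9 members lay in A in each condition. The count by gene repeats the single value of the shared chr 11 bin for every skeletal gene. The PC1 values of the 5 other class II myosin heavy chain genes, which serve non-muscle and smooth muscle cells or, for *Myh15*, are of unsure role in mouse, lay between those of the members. The non-muscle genes *Myh9*, *Myh10* and *Myh14* had scaled PC1 from 0.78 to 2.11 over the conditions, the smooth muscle gene *Myh11* from 0.54 to 0.94, and *Myh15* from −0.45 to −0.34. Thus only the skeletal cluster and *Myh15* were in B, and the cluster was lower than *Myh15* in every condition. By rank within the own chromosome the gap was small in the later conditions. Of the chr 16 bins, 43.7%, 44.7% and 47.9% lay below *Myh15*. Of the chr 11 bins, 2.95%, 37.1% and 45.1% lay below the cluster.

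**Figure D1:**
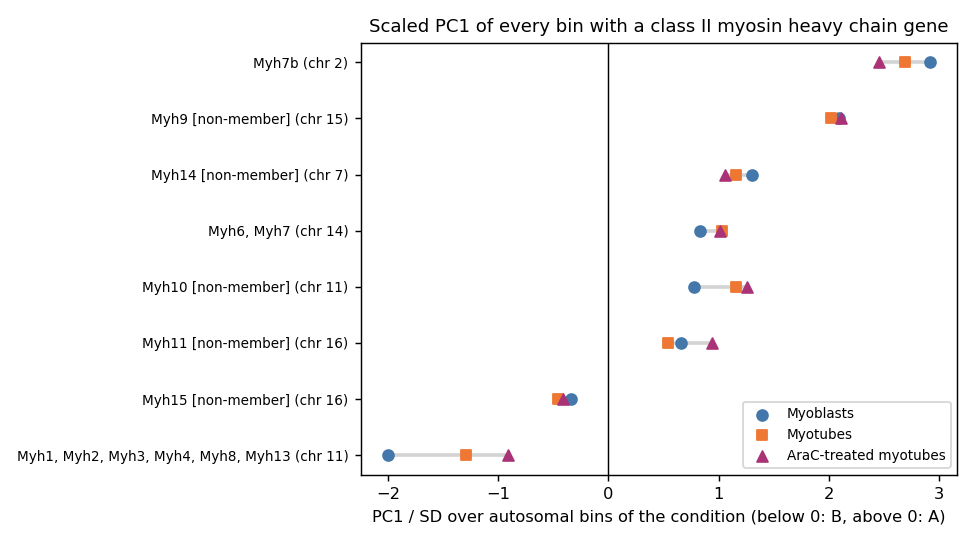
Scaled PC1 (PC1 divided by its SD over autosomal bins, x axis) of each bin that holds a class II myosin heavy chain gene (y axis), with 1 symbol per condition from 1 pooled matrix each, so no error bars. The chr 11 bin of the 6 skeletal genes moved from −2.0 to −0.91 and stayed below 0, while the chr 14 bin (0.83 to 1.03) and the *Myh7b* bin (2.45 to 2.92) stayed above 0.

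No locus bin changed compartment in any pair of conditions. The sign of PC1 differed in 7.32% of the 4727 autosomal bins from myoblasts to myotubes, in 10.2% from myoblasts to AraC-treated myotubes and in 5.12% between the later conditions. Within B, the bin of the skeletal genes rose. From myoblasts to myotubes, its scaled PC1 rose by 0.70, and 57 autosomal bins (1.21%) rose more. From myoblasts to AraC-treated myotubes it rose by 1.09, and 63 bins (1.33%) rose more. Between myotubes and AraC-treated myotubes the difference was 0.38, and 174 bins (3.68%) rose more. Among the 237 bins of chr 11 alone, 7, 6 and 10 (2.95%, 2.53% and 4.22%) rose more in these pairs. By a limit of 0.5 SD, 1 of 3 locus bins rose from myoblasts to myotubes and 1 of 3 from myoblasts to AraC-treated myotubes, in each case that of chr 11, against 3.62% and 7.00% of all autosomal bins. Between myotubes and AraC-treated myotubes, 0 of 3 rose by that limit, against 2.07% of all bins. With odd and even partner bins, the rise to AraC-treated myotubes was 1.11 and 1.13, and for 95% of the autosomal bins those versions of the change differed by less than 0.101.

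The rise depended on the scale, because PC1 itself had a wider spread after differentiation. Without division by the SD, PC1 of the chr 11 bin was −1.72 in myoblasts, −2.09 in myotubes and −1.24 in the AraC-treated myotubes, so that it was lower in myotubes than in myoblasts by 0.370. Divided by the SD over chr 11 bins alone, the change was 0.44, under the limit. The rank within chr 11, which no scaling alters, moved from 2.95% to 37.1% over the same comparison. The unscaled value of AraC-treated myotubes was the highest of the 3 and was above that of myoblasts by 0.478.

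The bins of the cardiac and slow genes moved less than 0.5 SD. The *Myh6* and *Myh7* bin was higher by 0.21 in myotubes and by 0.19 in the AraC-treated myotubes than in myoblasts, and 15.8% and 21.5% of the autosomal bins rose more. The *Myh7b* bin had differences of −0.23 to myotubes and −0.47 to AraC-treated myotubes on the scaled values, and 93.7% of the autosomal bins had a higher change in the latter comparison. The latter value lay close to the limit, and it was −0.45 from odd and −0.57 from even partner bins, so that the choice of partners decided on which side it fell. The direction also depended on the scale, since the differences were −0.014 and −0.22 with the SD of chr 2 bins alone and 1.82 and 0.82 without division by an SD. Without division, those of the *Myh6* and *Myh7* bin were 0.953 and 0.667. By that limit, 0 of 3 locus bins fell in any pair, against 2.54% of all autosomal bins from myoblasts to myotubes, 5.39% from myoblasts to AraC-treated myotubes and 0.148% between the later conditions.

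To see how the skeletal cluster stood among bins that started as low, all bins of chr 11 with scaled PC1 below −1.5 in myoblasts were listed, a limit chosen after the value of the cluster had been seen. There were 40 such bins, and their median change from myoblasts to AraC-treated myotubes was −0.09, from −0.41 to 1.09. The bin of the skeletal genes had the highest change of the 40, and the bin after it, with *Dhrs7c* (a reductase of the sarcoplasmic reticulum) and *Stx8*, the next (0.85). The bin with *Unc45b*, the chaperone that folds the myosin motor, was also among the 40, and its scaled PC1 was −1.72, −1.78 and −1.5 in myoblasts, myotubes and AraC-treated myotubes. Deep B position in myoblasts was therefore not followed by an equal change in these bins. Over all autosomes, 80 bins on 5 chromosomes lay below −1.5 in myoblasts, and 16 rose by over 0.5 to AraC-treated myotubes, and 0 rose more than the cluster from myoblasts to either later condition.

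**Figure D2:**
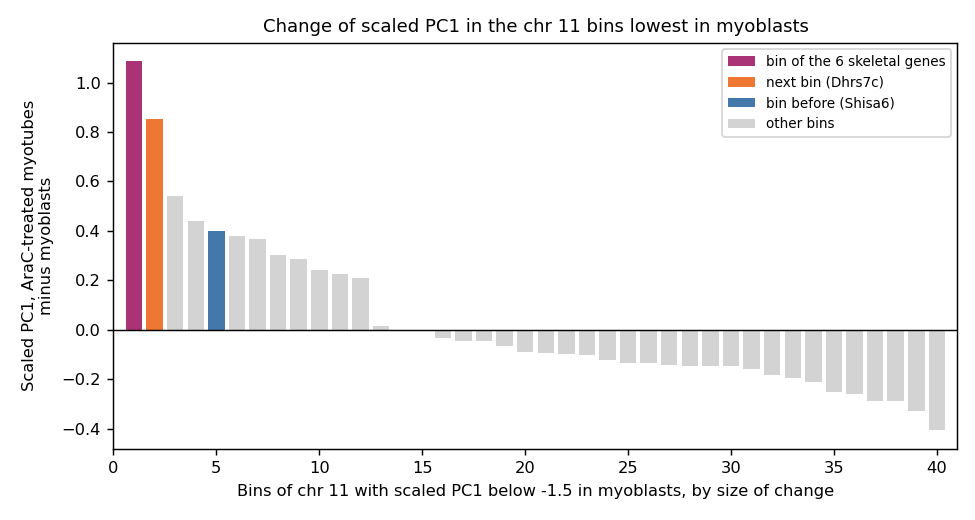
Change of scaled PC1 from myoblasts to AraC-treated myotubes (y axis) in the 40 bins of chr 11 that lay below −1.5 in myoblasts, ordered by size (x axis), 1 bar a bin. The bin of the skeletal genes (1.09) and the bin after it (0.85) stand above the others, and the bin before it had a change of 0.40.

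The position of the cluster within its domain was then examined. On chr 11 the bin lay near the distal end of a B stretch that ran from 63000001 to 68500000 in myoblasts (5.5 Mb), with 8 bins of B before it and 2 after it. In myotubes and AraC-treated myotubes the stretch ended at 68000000, 1 bin nearer to the cluster. The bin that left it, at 68000001–68500000 with *Ntn1* and *Pik3r5* (named after its values were seen), had scaled PC1 of −0.17 in myoblasts, 0.43 in myotubes and 0.39 in the AraC-treated myotubes. The bin next to the cluster on this side rose with it, from −1.64 to −1.02 and −0.79. On the other side, the bin with *Pirt*, *Shisa6* and *Tmem238l* had −1.97, −1.81 and −1.57, a change of 0.16 to myotubes and 0.40 to AraC-treated myotubes, both under the limit of 0.5 SD. The cluster was the lowest of these bins in myoblasts and lay between its neighbours in both later conditions. Farther on, at 1.5 Mb, the bin of the non-muscle gene *Myh10* was in A in all conditions (0.78, 1.16 and 1.26).

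The coefficients with the neighbours moved too. With the bin before it, the cluster had a coefficient of 0.166 in myoblasts, 0.141 in myotubes and 0.0815 in the AraC-treated myotubes. With the bin after it, the coefficient was 0.143, 0.117 and 0.0745. Both were lowest in AraC-treated myotubes, also on the side that rose with the cluster. For the chr 14 bin the coefficients with the bin before were 0.0316, 0.0660 and 0.0237, and with the bin after 0.0851, 0.129 and 0.115. The *Myh7b* bin was the most alike to its neighbours of the loci, with 0.230, 0.377 and 0.291 before and 0.336, 0.490 and 0.350 after. None of these coefficients was divided by an SD, and the SD between chromosomes was highest in myotubes and lowest in myoblasts.

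The *Myh6* and *Myh7* bin was the second bin of an A stretch that began at 54000001 in every condition. This stretch ended at 59000000 in myoblasts and myotubes and at 66000000 in AraC-treated myotubes, so that its length was 5 Mb, 5 Mb and 12 Mb. The bin itself had 1 bin of A before it in each condition. *Myh7b* lay in the middle of an A stretch of 6 Mb in myoblasts, 4.5 Mb in myotubes and 6 Mb in the AraC-treated myotubes, with 5 bins of A after it in each.

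**Figure D3:**
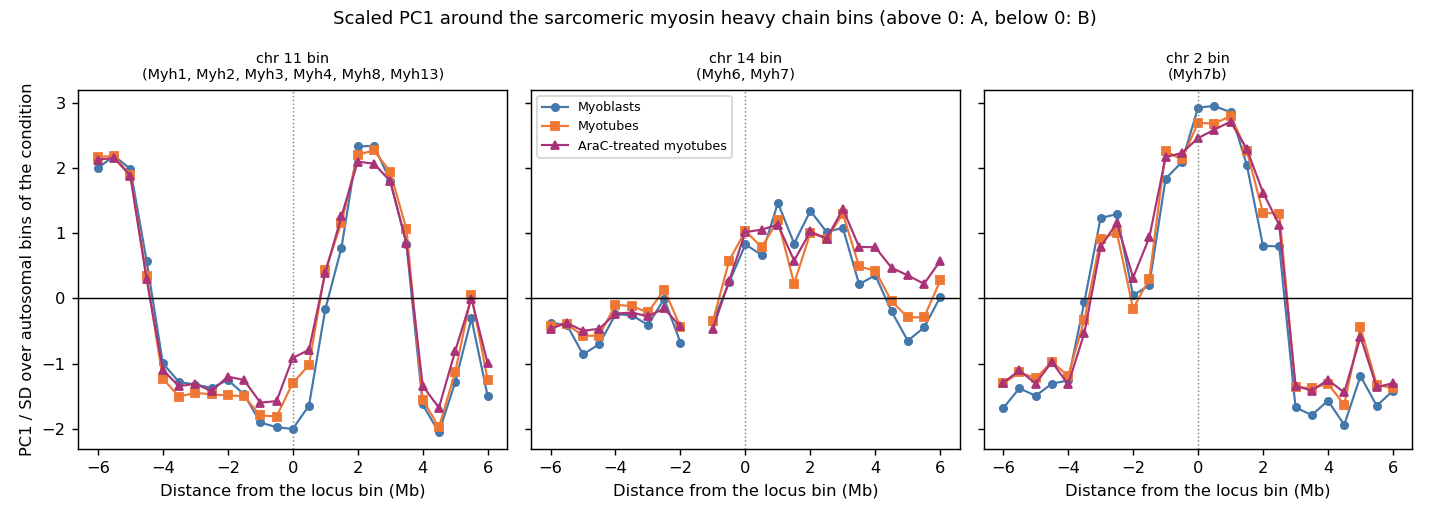
Scaled PC1 (y axis) of the bins within 6 Mb of each locus bin (x axis, distance in Mb, locus at 0), with 1 line per condition and a gap where a bin had no data. On chr 11 the lines part most at the cluster, 0.5 Mb and 1 Mb after it. At the bin before it they run from −1.97 to −1.57. They also part farther on, where the change from myoblasts to AraC-treated myotubes was 0.48 at 1.5 Mb, 0.48 at 5 Mb and 0.50 at 6 Mb. On chr 14 and chr 2 the locus bins keep their side of 0.

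To see which partners moved with PC1, the mean coefficient of each locus bin was taken over bins that stayed in A and over bins that stayed in B in all 3 conditions. With 1389 A bins of other autosomes, the skeletal cluster had a mean of −0.0441 in myoblasts, −0.0487 in myotubes and −0.0190 in the AraC-treated myotubes. With 2583 B bins of other autosomes it was 0.0384, 0.0529 and 0.0206. The cluster thus kept a higher coefficient with B than with A in every condition, and both means were nearest to 0 in AraC-treated myotubes. Divided by the SD of the coefficients between chromosomes, the difference of A minus B was −1.85 in myoblasts, −1.14 in myotubes and −0.54 in the AraC-treated myotubes. The bin before it had −1.85, −2.12 and −1.65 on that scale and the bin after it −1.38, −0.77 and −0.38. The cluster and the bin before it thus had equal values in myoblasts at this rounding and parted in both later conditions. The undivided difference of the cluster was −0.0824, −0.102 and −0.0396, so that in size it was highest in myotubes on that scale.

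On its own chromosome, over bins more than 2 Mb away, the difference of A minus B for the cluster was −0.172, −0.194 and −0.0803. For the *Myh6* and *Myh7* bin, the mean with A bins of other autosomes was 0.0506, 0.107 and 0.0902, and with B bins −0.0174, −0.0677 and −0.0566. Its difference over the SD was 1.53, 1.96 and 2.01, lowest in myoblasts. For the *Myh7b* bin, the mean with A bins was 0.138, 0.218 and 0.163 and with B bins −0.0662, −0.146 and −0.107, and the difference over the SD was 4.57, 4.09 and 3.70. Undivided, the difference was 0.0680, 0.175 and 0.147 for the chr 14 bin and 0.204, 0.364 and 0.270 for the *Myh7b* bin. The chr 14 bin thus had its lowest difference in myoblasts on both scales, whereas the *Myh7b* bin had its highest there in SD units and its lowest there undivided.

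**Figure D4:**
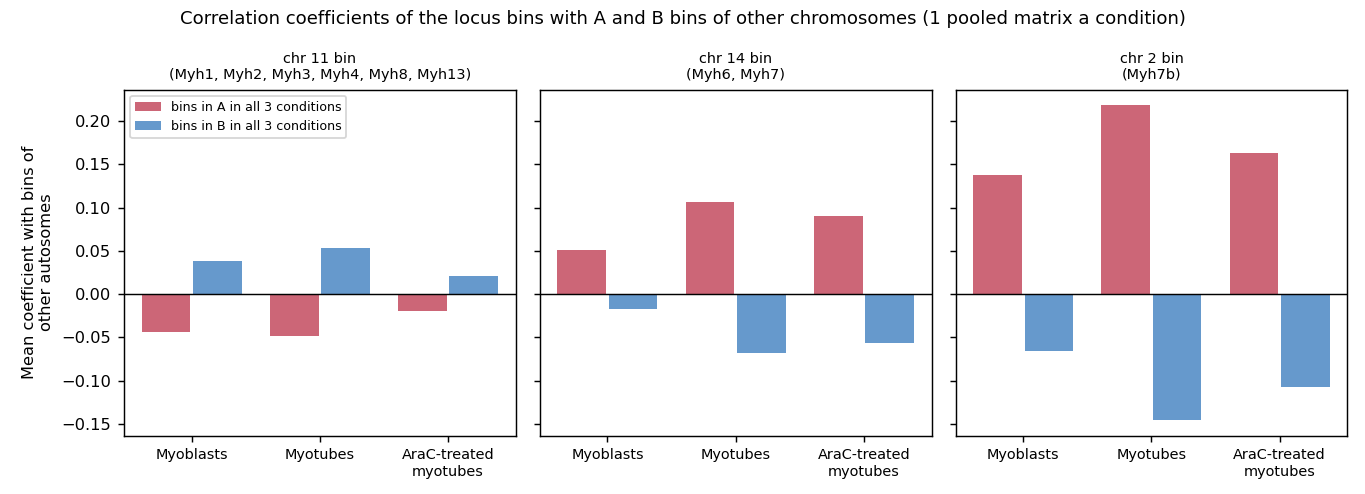
Mean correlation coefficient (y axis) of each locus bin with bins of other autosomes that stayed in A (red) or in B (blue) in all conditions (x axis), bars from 0, 1 pooled matrix a condition and no error bars. The chr 11 bin has negative means with A and positive means with B, nearest to 0 in AraC-treated myotubes (−0.0190 and 0.0206), and the other loci have the opposite signs in all conditions.

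The interaction profile of each locus bin on its own chromosome was compared between conditions by Pearson correlation. For the cluster, *r* was 0.965 from myoblasts to myotubes, 0.876 from myoblasts to AraC-treated myotubes and 0.931 between the later conditions, over 236 partner bins. The medians over autosomal bins were 0.877, 0.839 and 0.947. The cluster lay above the median in both pairs with myoblasts (95.7% and 65.6% of the bins had a lower *r*) and below it between myotubes and AraC-treated myotubes (36.9%). With bins of all other chromosomes as partners, its *r* was 0.882, 0.729 and 0.799. These values for the *Myh6* and *Myh7* bin were 0.879, 0.856 and 0.963 and for the *Myh7b* bin 0.958, 0.928 and 0.981, so that the cluster was the lowest of the loci in both pairs with AraC-treated myotubes and close to the chr 14 bin in the other. For the *Myh6* and *Myh7* bin, *r* was 0.871, 0.855 and 0.956 on its own chromosome, near the medians. For the *Myh7b* bin it was 0.976, 0.965 and 0.990, and 98.7%, 99.4% and 98.4% of the autosomal bins had a lower value. Of the 3 locus bins, 0 had *r* below 0 in any pair, against 3.28%, 5.80% and 1.16% of all autosomal bins in these pairs.

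The loci were then compared with each other across chromosomes. The *Myh6* and *Myh7* bin and the *Myh7b* bin had a coefficient of 0.0936 in myoblasts, 0.190 in myotubes and 0.141 in the AraC-treated myotubes. This was above 97.6%, 98.6% and 98.2% of all pairs of a chr 14 and a chr 2 bin. The skeletal cluster and the *Myh6* and *Myh7* bin had −0.0330, −0.0168 and 0.00106, and 19.5%, 39.9% and 46.7% of the pairs of their chromosomes lay lower. The cluster and the *Myh7b* bin had −0.122, −0.125 and −0.0626, and 0.971%, 16.1% and 29.7% of the pairs lay lower. By these ranks, the cluster stood farthest from both other loci in myoblasts and nearest in AraC-treated myotubes. The ranks depended on the general level of each bin. With the median trans coefficient of each bin subtracted, they were 5.98%, 67.9% and 82.5% with the chr 14 bin and 1.03%, 36.2% and 75.7% with the *Myh7b* bin, where the value in AraC-treated myotubes was 0.00635. Of the 3 pairs of loci, 1 was above the 95th percentile of its chromosome pair in each condition, where by definition 5.00%, 5.00% and 5.00% of the reference pairs lie above it.

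The high rank of the chr 14 and chr 2 pair depended on the pairs it was ranked among. Among pairs of bins that were both in A, as these are, 83.1% lay lower in myoblasts, 88.1% in myotubes and 85.1% in the AraC-treated myotubes, so that the pair was no longer above the 95th percentile in any condition. The coefficient of this pair in units of the SD between chromosomes was 2.10, 2.14 and 1.93.

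**Figure D5:**
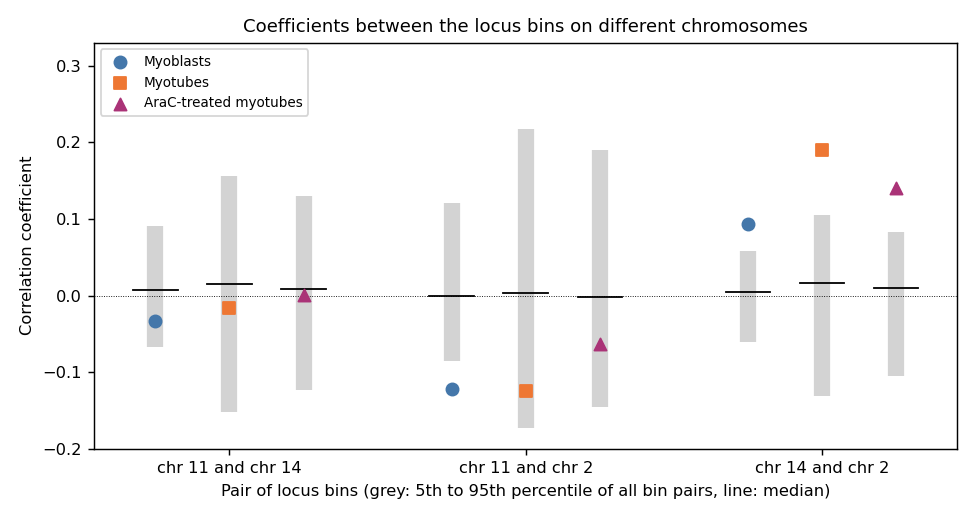
Correlation coefficient (y axis) between the locus bins on different chromosomes (x axis) in each condition (symbols), beside the 5th to 95th percentile (grey bar) and median (line) of all bin pairs of the same chromosomes. The chr 14 and chr 2 pair lies above the bar in all conditions (0.0936, 0.190 and 0.141), and the chr 11 and chr 2 pair lies below it in myoblasts (−0.122) and inside it later.

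The bins of other chromosomes with the highest mean coefficient over the conditions show the kind of chromatin each locus resembled. For the skeletal cluster these were 5 bins in B in every condition, with 0 to 3 protein-coding TSSs each. The leading bin was chr 12 5000001–5500000 with *Klhl29*, at 0.119, 0.122 and 0.0440, and the next was chr 13 59000001–59500000, with no protein-coding TSS, at 0.115, 0.114 and 0.0488. For the *Myh6* and *Myh7* bin these were 5 bins with 15 to 27 TSSs, all in A. They were led by chr 10 80500001–81000000 (0.152, 0.230 and 0.194), and included chr 3 88000001–88500000 (0.118, 0.237 and 0.188), which holds *Mef2d*, a transcription factor of the MEF2 family that drives muscle genes. For *Myh7b* the leading bin was chr 8 122000001–122500000, with *Cyba* and *Zfpm1*, at 0.379, 0.531 and 0.405. The chr 10 bin that led for the cardiac genes was also among its 5 (0.385, 0.538 and 0.377).

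The bins whose coefficient with a locus, in units of the SD between chromosomes, rose most from myoblasts to both later conditions were also listed. For the cluster, the highest rise in these units was with chr 12 111500001–112000000, which holds *Ckb* (the brain-type creatine kinase) and *Eif5*, from −3.37 SD in myoblasts to −1.40 in myotubes and −0.61 in the AraC-treated myotubes. The next were chr 5 123500001–124000000, with *Hip1r* and *Clip1* (−3.27, −1.37 and −1.03), and chr 12 112000001–112500000, with *Kif26a* (−2.36, −0.47 and 0.09). All 3 were A bins in every condition. That the coefficients of the cluster with them in SD units were lowest in myoblasts follows from how the bins were chosen. Undivided, the coefficient with the leading bin was −0.151, −0.125 and −0.0446 and that with the *Kif26a* bin −0.106, −0.0419 and 0.00644, so that the order of the rises depended on the scale. For *Myh7b* the rises went to positive values, at 3 bins of chr 8 of which the leading bin, 118500001–119000000 with no protein-coding TSS, went from −0.05 to 3.33 and 3.08 SD while its own scaled PC1 went from 0.17 to 1.57 and 1.75. For the cardiac genes the leading bin was chr 8 127000001–127500000 with *Pard3* (−0.04, 1.42 and 1.52 SD).

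The partners of myosin in the sarcomere were placed in the same way. Of the 6 muscle myosin light chain genes, each in a bin of its own, 5 lay in A in every condition and *Myl1* in B. Over all autosomes, 60.1%, 58.3% and 57.3% of the protein-coding genes lay in A, and 38.3%, 36.5% and 35.5% of the bins. Scaled PC1 rose by over 0.5 from myoblasts to myotubes at *Myl3* (0.58) and *Myl4* (0.70), the ventricular/slow and the embryonic/atrial essential chains, and it fell by over 0.5 at 0 of the 6, against 3.62% of all autosomal bins that rose and 2.54% that fell. The medians of the list were 1.61, 2.02 and 1.92, against 0.37, 0.36 and 0.40 over all autosomal protein-coding genes. Of 9 genes of the thick filament and M band, 6 lay in A in myoblasts and 7 in the later conditions, the difference being *Ttn*, the giant spring of the sarcomere (−0.15, 1.43 and 1.60). From myoblasts to AraC-treated myotubes, 2 of these 9 bins rose, among them that of *Ttn* by 1.75, and 2 fell (*Myom1* and *Myom3*, M band proteins, by 0.53 and 0.67), against 7.00% and 5.39% of all autosomal bins. The skeletal cluster was lower than every gene of these lists in myoblasts.

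Of the 4 genes in the list named chaperones and kinases, *Hspb7* and *Mylk2* lay in A and *Unc45b* and *Smyd1* in B in all conditions. In any pair, 0 of their bins rose or fell by over 0.5. Of all autosomal bins, 3.62% rose from myoblasts to myotubes, 7.00% from myoblasts to AraC-treated myotubes and 2.07% between the later conditions. In the same pairs, 2.54%, 5.39% and 0.148% fell. The 16 thin filament genes lay in 13 bins, of which 9 (12 genes) were in A in myoblasts and 10 (13 genes) in the later conditions. Over all autosomes, 38.3%, 36.5% and 35.5% of the bins and 60.1%, 58.3% and 57.3% of the protein-coding genes were in A. Between myoblasts and AraC-treated myotubes, 2 of the 13 bins rose, that of *Neb* by 0.96 and that of *Tnnt3* and *Tnni2* by 0.55. Of the 13 bins, 0 fell, against 7.00% of all autosomal bins that rose and 5.39% that fell. The 7 regulators of myogenesis lay in 6 bins, of which 0 rose or fell in any pair. *Myod1* (1.42, 1.54 and 1.50) and *Myog* (2.66, 2.53 and 2.53) lay in A throughout, and *Myf5* with *Myf6* (−0.46, −0.52 and −0.55) in B. Of the 10 bins of the 11 genes known to steer myosin isoform choice, 0 rose in any pair. That of *Eya1*, 1 of the 10, fell by over 0.5 from myoblasts to each later condition, against 2.54% and 5.39% of all autosomal bins. *Sox6*, a repressor of slow fibre genes, stayed in B at −0.50, −0.44 and −0.39. Of 9 bins of gene clusters of other tissues, 0 rose from myoblasts to myotubes, against 3.62% of all autosomal bins. That of the keratin gene *Krt5*, 1 of the 9, rose to AraC-treated myotubes (0.99 from myoblasts and 0.64 from myotubes). The shares of all autosomal bins that rose to AraC-treated myotubes were 7.00% from myoblasts and 2.07% from myotubes. Between myotubes and AraC-treated myotubes, 0 bins of the muscle lists rose or fell, against 2.07% and 0.148% of all autosomal bins. The median changes from myoblasts to AraC-treated myotubes were −0.05 for the light chains, −0.09 for the thick filament and M band, 0.05 for the chaperones and kinases, 0.09 for the thin filament, 0.04 for the regulators of myogenesis, −0.03 for those of isoform choice and 0.01 for the clusters of other tissues, against −0.02 over all autosomal bins. These lists were drawn up with earlier results of these data known.

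Across chromosomes, the coefficients of the skeletal cluster differed between the lists. Its means were positive with the regulators of isoform choice in myoblasts and myotubes (0.00456 and 0.00821, and −0.00428 in AraC-treated myotubes) and with the clusters of other tissues in both later conditions (0.0281 and 0.0196, and −0.00188 in myoblasts). With the 16 thin filament genes its mean was −0.0428, −0.0442 and −0.0161, and 6, 6 and 5 of these genes had a coefficient above 0. With the 4 light chain genes of other chromosomes, the cluster had a mean of −0.0805 in myoblasts, −0.0796 in myotubes and −0.0253 in the AraC-treated myotubes, while its mean over all protein-coding genes in A of other chromosomes was −0.0517, −0.0557 and −0.0200. With *Mylpf*, the fast skeletal regulatory light chain, the cluster had −0.146, −0.126 and −0.0401. With *Acta1*, skeletal alpha actin, it had −0.143, −0.134 and −0.0729, and with *Myog* −0.127, −0.106 and −0.0464. In units of the SD between chromosomes these were −3.26, −3.20 and −2.85 in myoblasts and −0.55, −1.0 and −0.63 in AraC-treated myotubes. The coefficients of the cluster with *Mylpf*, *Acta1* and *Myog* were below 0 in every condition and nearest to 0 in AraC-treated myotubes. The same held for its mean with all genes in A. Other genes of these lists went the other way. Of the 4 light chain genes, 1, 1 and 1 had a coefficient above 0. Of the 7 regulators of myogenesis, 1, 3 and 3 did. With *Mef2c*, 1 of these regulators, the cluster had 0.013, 0.044 and 0.028. For comparison, 9067, 9964 and 10058 of all 18729 protein-coding genes of other autosomes had a coefficient above 0 with the cluster.

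The *Myh6* and *Myh7* bin had means of 0.0671, 0.145 and 0.119 with the 6 light chain genes and of 0.0487, 0.0885 and 0.0741 with the 15 thin filament genes of other chromosomes, against 0.0594, 0.123 and 0.103 with all protein-coding genes in A. The *Myh7b* bin had 0.191, 0.324 and 0.239 with the 6 light chain genes and 0.148, 0.236 and 0.172 with 13 thin filament genes, against 0.158, 0.254 and 0.193 with all genes in A. For both loci the light chain means were thus above, and the thin filament means below, those of genes in A in each condition. These lists differ in how many of their genes lie in A, and no test of a list was made.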

How the data were processed

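Hi-C libraries of C2C12 cells had been made with HindIII, aligned to mm10 with Bowtie and processed with HOMER (versions not given in the sources used here). The authors pooled 2 replicates a condition and deposited 3 symmetric matrices, whose values are a correlation score (a Pearson coefficient between normalized interaction profiles of 500 kb bins). Normalization and pooling preceded deposit, so depth and replicate spread per coefficient cannot be read from the matrices, and no test between conditions was made. Columns of unmapped samples numbered 0.

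The members and gene lists were chosen with earlier results of these data known. Genes named were the members, all genes of 8 context lists (other class II myosins, myosin light chains, thick filament and M band, chaperones and kinases, thin filament, regulators of myogenesis, regulators of isoform choice, clusters of other tissues), genes of locus and adjacent bins, and for each locus the 5 most alike and 3 most rising bins of other chromosomes, of which some are given. Of the list genes, 1 could not be placed. Values of some list genes are not reported here. PC1 was computed per chromosome (columns centred, sign set by TSS density) and called changed beyond 0.5 SD, in NumPy 2.4.6 and SciPy 1.17.1 under Python 3.11.15, with plots by Matplotlib 3.10.9. A changed sign of PC1 and *r* below 0 were tried as calls on simulated data of 1200 bins. Both called 100% of 60 bins whose compartment had been inverted and 0% of the others. The limit of 0.5 SD was not tried on simulated data. Alternatives covered the computation and scaling of PC1, the threshold, partner bins, the kind of correlation, the reference pairs and the weighting of lists.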

Additional observations from a re-analysis of the deposited data

How the results depend on the processing

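The count of locus bins in A was 2 of 3 in each condition under every computation of PC1 tried, and the rank of the skeletal cluster within chr 11 ranged from 2.11% to 3.38% in myoblasts and from 37.1% to 42.6% in myotubes. The count of locus bins that rose from myoblasts to myotubes was 1, but 0 with the SD of the own chromosome, 0 with a limit of 1 SD and 2 (chr 14 and chr 2) without division by an SD, where the chr 11 change was −0.370. From myoblasts to AraC-treated myotubes the count was 1, and 2 (chr 14 and chr 2) without division, where the chr 11 change was 0.48. Between myotubes and AraC-treated myotubes it was 0, and 1 (chr 11) with uncentred columns or without division. The wider spread of unscaled PC1 after differentiation stands in the report, and the cause of the other shifts was not tested. The count of locus pairs above the 95th percentile was 1 in each condition, and 0 in each with reference pairs both in A. The *Myh7b* change to AraC-treated myotubes passed the limit for a fall with uncentred columns (−0.51), with partners on other chromosomes (−0.51), with even partners (−0.57) and with the diagonal set to 0 (−0.51), the last chosen after seeing the data. It was −0.22 with the SD of its own chromosome and 0.82 without division. No paired analysis was possible because the replicates were pooled before deposit, and for the same reason no replicate could be left out. The matrices do not give the depth per coefficient, and 500 kb bins do not separate the 6 skeletal genes.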
